A study of Mus musculus with 24 samples.

Results

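The genes described here are 10 transcription factors of the oligodendrocyte lineage, Sox10, Sox8, Olig1, Olig2, Nkx2-2, Nkx6-2, Myrf, Zfp488, Sox6 and Tcf7l2. They were found by their symbols among the 25135 genes listed at each age, and all 10 were listed at both ages. The question was which of them fell with Sox10 in cortical nuclei lacking Kdm6b and which did not, in reads as well as in normalized levels. Nuclei of the Emx1 lineage, which holds cortical glutamatergic neurons, astrocytes and part of the oligodendrocytes, were sorted from mouse cortex by a SUN1-GFP reporter, and their RNA was sequenced. WT mice carried unmodified Kdm6b alleles and the reporter, and the sources used here do not state whether they carried Emx1-Cre. In Kdm6b-cKO mice, Emx1-Cre removed floxed Kdm6b (f/f) in dorsal telencephalic progenitors, and they carried the same reporter. There were 6 libraries per genotype at postnatal day 1 (P1) and 6 per genotype at P30, 24 in all, and the labels do not say whether each came from a separate animal, so p-values measure the spread between these libraries. Mice of both groups were backcrossed to C57BL/6, and cells outside the Emx1 lineage keep Kdm6b in the Kdm6b-cKO cortex.

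OLIG2, a basic helix-loop-helix protein, specifies oligodendrocyte precursors, and SOX10 keeps the lineage on course and switches on genes of myelin together with MYRF, which it induces. NKX2-2, ZFP488 and TCF7L2 act around the step from precursor to differentiating cell, NKX6-2 belongs to mature oligodendrocytes, and SOX6 holds precursors back from differentiation. KDM6B takes methyl groups off lysine 27 of histone H3, a repressive mark that is commonly laid over CpG-rich promoters of developmental regulators.

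Promoters of these factors are shown because this mark favours CpG-rich starts, and the factors were found to differ in this property. RefSeq promoters of build GRCm38.p6 were matched by symbol for 7 of the 10 genes, with 13 start sites. Not matched were Sox10, Olig1 and Myrf. The 150 bases before the start are printed 5′ to 3′ on the gene's strand, with each CpG in capitals, for a Sox factor, a helix-loop-helix factor, a homeodomain factor and the Wnt effector Tcf7l2, from its start site with the most CpG.
Sox8, chr17:25570687-25570836, minus strand: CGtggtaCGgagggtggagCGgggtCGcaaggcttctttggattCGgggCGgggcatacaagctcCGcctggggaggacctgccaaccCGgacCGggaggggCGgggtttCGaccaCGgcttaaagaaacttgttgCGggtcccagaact
Olig2, chr16:91225400-91225549, plus strand: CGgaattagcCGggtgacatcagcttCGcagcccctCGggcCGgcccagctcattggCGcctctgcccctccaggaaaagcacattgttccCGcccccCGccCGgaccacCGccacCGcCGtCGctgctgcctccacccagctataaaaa
Nkx2-2, chr2:147186403-147186552, minus strand: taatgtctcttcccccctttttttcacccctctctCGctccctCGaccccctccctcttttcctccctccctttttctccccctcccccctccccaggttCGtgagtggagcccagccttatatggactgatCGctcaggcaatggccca
Tcf7l2, chr19:55741660-55741809, plus strand: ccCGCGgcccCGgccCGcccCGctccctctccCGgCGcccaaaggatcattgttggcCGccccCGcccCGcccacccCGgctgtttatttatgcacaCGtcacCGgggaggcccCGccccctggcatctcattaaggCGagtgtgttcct
Sox8 held 13 CpG in this window, Olig2 13 and Tcf7l2 15, against a median of 4 over all windows of this length, and Nkx2-2 held 4. At least 13 CpG were found in 20.3% of all such windows, at least 15 in 15.3%, and at least 4 in 51.3%. Over the 300 bases that run past the start, the member promoters ranged from 2 CpG, at start sites inside Sox6, to 34 at Tcf7l2, against a median of 7 over 32851 promoters. Nkx6-2 had 32 CpG, Zfp488 16 and Nkx2-2 17 in that length. These are counts in the reference sequence, and no chromatin value was set beside them.

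Levels are given as FPKM, the fragments counted per kilobase of transcript and scaled to the size of the library, which the authors computed with Cuffdiff after alignment to mm9, separately for each age. The comparison of genotypes used limma on log2(FPKM + 0.1), age by age, over genes averaging 1 FPKM or more. A log2 fold change on that scale depends on the added 0.1 where levels are low or 0. That of Sox8 at P1 was -1.85 with 0.1 added, -1.18 with 1 and -2.41 with 0.01. A gene was called at a Benjamini-Hochberg adjusted p under 0.05 over all genes tested and a change of more than 2-fold. Fold changes are Kdm6b-cKO against WT throughout, with the standard error (SE) of limma. Libraries are named by the numbers 0 to 5 that the tables give them within each group. In bulk nuclei, fewer cells of a type and less RNA per cell cannot be told apart.

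Depth was read from the height of the steps of 1 read in low FPKM values. This effective depth at P1 was 818000 to 3897000 reads in WT and 191000 to 2843000 in Kdm6b-cKO, where libraries 0, 1 and 5 were under 1000000. The P30 libraries held 5117000 to 8309000 reads in WT and 1936000 to 8047000 in Kdm6b-cKO, where libraries 2, 3 and 4 were under 3000000. At P1, WT libraries 2 to 5 and Kdm6b-cKO library 5 had 397 to 794 of 1128 olfactory receptor genes above 0, and the remaining 7 libraries had 2 to 22. At P1, 45S ribosomal RNA was 3423 and 3239 FPKM in Kdm6b-cKO libraries 0 and 1, and 899 FPKM or less in the other 10 libraries. At P30, it was below 1000 FPKM in WT library 0 and Kdm6b-cKO libraries 0, 1 and 5, and between 1629 and 25878 FPKM in the other 8. Kdm6b itself, counted over the whole gene and not over the floxed part, ranged over 24.9 to 51.0 FPKM in WT and over 15.0 to 38.4 in Kdm6b-cKO at P1 (log2 fold change -0.41, SE 0.29, adjusted p = 0.534), and 16.9 to 26.4 against 17.5 to 28.1 FPKM at P30 (log2 fold change 0.12, SE 0.17, adjusted p = 0.828). These levels do not separate the genotypes. In qRT-PCR of sorted SUN1-GFP nuclei, the authors reported an efficient loss of Kdm6b mRNA in Kdm6b-cKO. Markers of cells outside the Emx1 lineage were present. GABAergic neuron genes passed the filter in 11 of 12 cases at P1, where they summed to 666 to 1454 FPKM in WT and to 907 to 2795 in Kdm6b-cKO, and in 9 of 12 at P30, with sums of 41.5 to 530.2 and of 203 to 379. Microglia markers at P30 summed to 12.2 to 33.9 FPKM in WT and to 19.1 to 44.9 in Kdm6b-cKO (median log2 fold change 1.52 over 5 tested genes), and 3 endothelial and mural markers had a median of 1.01.

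At P1, the mean of log2(FPKM + 0.1) was lower in Kdm6b-cKO for every factor tested, and none passed the threshold. The mean FPKM of Nkx6-2 was nevertheless higher in Kdm6b-cKO (2.04, against 1.36 in WT), and the log2 fold changes of Nkx6-2 and Zfp488 turned to 0.54 and 0.18 with quantile scaling and to 1.49 and 0.088 with a term for olfactory receptor signal. Of the 10 factors, 9 passed the filter (Myrf did not), and all 9 had a log2 fold change below 0, with a median of -0.87. Among all 16250 genes tested, 63.2% lay below 0, with a median of -0.25, so the P1 values of the factors are to be read against that shift. Most markers of some other cell types also had log2 fold changes below 0 at P1: 7 of 8 for microglia (median -0.87), 8 of 10 for astrocytes (median -0.53, 4 lower at an unadjusted p under 0.05) and 6 of 8 for endothelial and mural cells (median -0.63), and their part in the values of the factors was not tested. The summed levels of these lists overlapped between genotypes, at 57.4 to 117 against 26.6 to 118 FPKM (WT, then Kdm6b-cKO) for microglia, 200.3 to 299 against 119 to 358 for astrocytes and 131 to 251 against 64.2 to 246 for endothelial and mural cells. No gene at all was called at P1 (0% in either direction). By unadjusted p under 0.05, 3 of the 9 factors, Sox10, Sox8 and Sox6, were lower, against 7.77% of all genes, and no factor was higher, against 6.7%. At P30, 8 factors passed the filter (Nkx2-2 and Zfp488 did not), and Sox10 alone was called, lower in Kdm6b-cKO. The background was 30 genes called lower among 13289 (0.226%) and 7 called higher (0.0527%). Of those 8, 5 lay below 0, with a median of -0.25, against 54.8% of all genes and a median of -0.047.

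**Figure D1:**
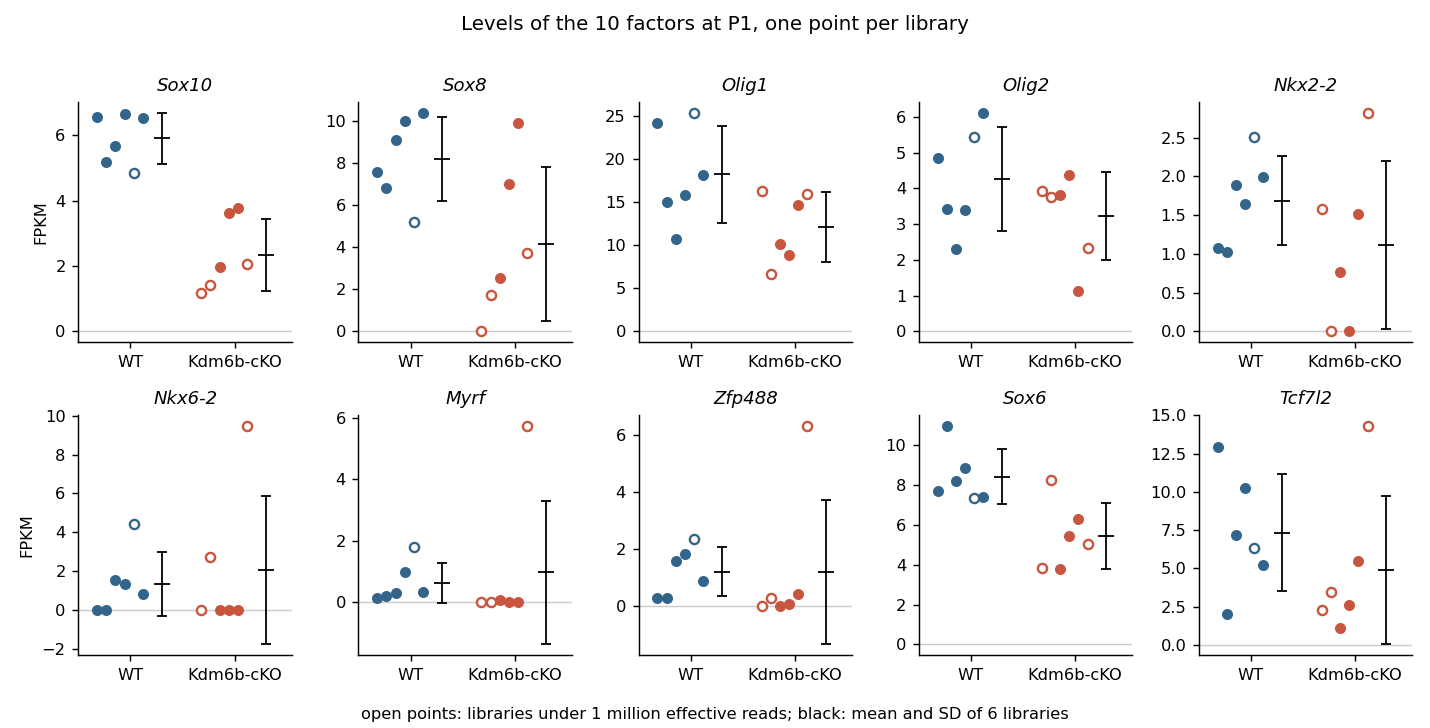
Levels at P1 in FPKM (vertical axis, linear, scaled for each gene) in each of the 6 WT and 6 Kdm6b-cKO libraries, with the mean and SD; open points are libraries under 1000000 effective reads. Sox10 separates the genotypes, and in Nkx6-2, Myrf, Zfp488 and Tcf7l2 the highest Kdm6b-cKO point is library 5, with 191000 effective reads.

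The SoxE factors came first. Sox10 lies on chromosome 15 of mm9 from 78985343 to 78994920, minus strand, and Sox8, its close relative with overlapping roles in the lineage, on chromosome 17 from 25702837 to 25707631, minus strand. At P1, Sox10 was 4.84, 6.10 and 6.65 FPKM (lowest, median, highest) in WT and 1.16, 2.02 and 3.77 FPKM in Kdm6b-cKO. No Kdm6b-cKO library reached the lowest WT library, a pattern of 0.683% of all genes. On the log2 scale Sox10 stood at -1.41 (SE 0.39, adjusted p = 0.183 by limma) at P1, and the exact two-sided permutation test gave p = 0.00216, the smallest that 6 against 6 libraries allow. The difference was -1.46 within the libraries with olfactory receptor signal (4 WT and 1 Kdm6b-cKO, exact permutation p = 0.200, the smallest possible) and -1.40 within the others (2 WT and 5 Kdm6b-cKO, exact permutation p = 0.0952), and limma with a term for that signal gave -1.42 (adjusted p = 0.369). In reads, Sox10 had 41, 51, 33, 22, 10 and 18 in the WT libraries 0 to 5 and 1, 3, 14, 26, 26 and 1 in the Kdm6b-cKO libraries. The lowest 3 of these values are in the 3 Kdm6b-cKO libraries under 1000000 reads, while WT library 4, with 818000 effective reads, had 10. Kdm6b-cKO libraries 0 and 1, with the high P1 45S levels, had the lowest Sox10 levels, 1.16 and 1.43 FPKM, and the part of 45S was not tested. In the 5 WT and 3 Kdm6b-cKO libraries above 1000000 reads the Sox10 groups still did not overlap, with a difference of -0.99.

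At P30, Sox10 was 7.37, 9.35 and 11.5 FPKM in WT and 1.87, 3.71 and 4.19 FPKM in Kdm6b-cKO. Its highest Kdm6b-cKO library lay below its lowest WT library, which 1.05% of all genes did. This came to a log2 fold change of -1.46 (SE 0.23, adjusted p = 0.0204 by limma). Sox10 was the leading gene of the study that made these libraries, so neither this fall nor that at P1 is independent evidence. The call was lost, at an adjusted p of 0.0514 to 0.0681, without WT library 2, 3, 4 or 5 or Kdm6b-cKO library 0, while the fold change stayed between -1.52 and -1.41. In reads, Sox10 had 95 to 228 in the WT libraries and 19 to 61 in the Kdm6b-cKO libraries, without overlap.

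Sox8 showed a wide spread in Kdm6b-cKO at P1. It was 5.21, 8.35 and 10.4 FPKM in WT and 0, 3.12 and 9.90 FPKM in Kdm6b-cKO. Libraries 3 and 4 of Kdm6b-cKO stood inside the WT range, and the other 4 stood below it. Sox8 had a log2 fold change of -1.85 (SE 0.86, adjusted p = 0.341), and of -0.62 in the libraries above 1000000 reads. The library listed at 0 had 342000 effective reads, and Kdm6b-cKO libraries 0, 1 and 5 had 0, 4 and 2 Sox8 reads. At P30, Sox8 was 10.7, 19.5 and 24.0 FPKM in WT and 5.34, 15.7 and 21.5 FPKM in Kdm6b-cKO. The groups overlapped, with Kdm6b-cKO libraries 3 and 4 below all WT libraries, and the log2 fold change was -0.46 (SE 0.31, adjusted p = 0.574). Sox8 was the best covered of the factors at P30, with 29 to 529 reads per library.

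Olig1 and Olig2, the helix-loop-helix pair of the lineage, lie on the plus strand of chromosome 16, Olig2 from 91225795 to 91228922 and Olig1 from 91270014 to 91272184. Olig1 at P1 was 10.8, 17.0 and 25.4 FPKM in WT and 6.70, 12.4 and 16.3 FPKM in Kdm6b-cKO. All 6 Kdm6b-cKO libraries lay below the WT median, but 3 of them stood inside the WT range. Its log2 fold change was -0.60 (SE 0.30, adjusted p = 0.380). At P30, Olig1 was 2.28, 4.31 and 6.83 FPKM in WT and 2.96, 3.83 and 6.03 FPKM in Kdm6b-cKO. Every Kdm6b-cKO library stood inside the WT range, and the log2 fold change was -0.074 (SE 0.29, 95% interval -0.69 to 0.54, adjusted p = 0.943). This interval leaves out a fall as large as that estimated for Sox10.

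Olig2, which specifies the lineage, was 2.32, 4.14 and 6.12 FPKM in WT and 1.14, 3.78 and 4.39 FPKM in Kdm6b-cKO at P1. Kdm6b-cKO library 4 alone lay below the WT range, and the log2 fold change was -0.44 (SE 0.43, adjusted p = 0.649). At P30, Olig2 was 1.57, 2.17 and 3.11 FPKM in WT and 0.503, 1.79 and 2.76 FPKM in Kdm6b-cKO. Libraries 2 and 3 of Kdm6b-cKO stood below the others, with 3 and 5 reads, and the remaining 4 overlapped WT. Its log2 fold change was -0.59 (SE 0.38, adjusted p = 0.561).

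The homeodomain factors were low at P1. Nkx2-2, a repressor that times differentiation, lies on chromosome 2 from 147003282 to 147019979, minus strand, and shares exon sequence with Nkx2-2as on the other strand. Nkx6-2, a factor of mature oligodendrocytes, lies on chromosome 7 from 146765276 to 146768696, minus strand, with an exon overlapping the end of Inpp5a on the plus strand. The sources used here do not say that counting used strand, so reads of these genes and of their overlapping partners cannot be told apart.

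Nkx2-2 at P1 was 1.02, 1.77 and 2.50 FPKM in WT and 0, 1.14 and 2.82 FPKM in Kdm6b-cKO. It was listed at 0 in Kdm6b-cKO libraries 1 and 3 and was highest in library 5, and the log2 fold change was -1.41 (SE 0.90, adjusted p = 0.485). At P30, Nkx2-2 was 0.633, 1.09 and 2.03 FPKM in WT and 0.279, 0.514 and 0.916 FPKM in Kdm6b-cKO. All 6 Kdm6b-cKO libraries lay below the WT median and 4 lay below the whole WT range. Nkx2-2 had a log2 fold change of -0.95 (SE 0.41, 95% interval -1.83 to -0.07), with p = 0.0173 by the exact two-sided permutation test, unadjusted. Nkx2-2 was under the filter at P30 and has no adjusted p in the main comparison. With no filter, limma over all libraries gave the same fold change at an adjusted p of 0.427. Its difference in the 5 WT and 3 Kdm6b-cKO libraries with high 45S was -1.10, and it was -1.43 in the other 4 libraries. It was -0.64 without the 3 Kdm6b-cKO libraries under 3000000 reads, where Nkx2-2 passed the filter and not the test (adjusted p = 0.417).

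Nkx6-2 was listed at 0 in 6 of 12 libraries at P1, among them 2 of WT and 4 of Kdm6b-cKO. The highest value, 9.49 FPKM, was in the shallow Kdm6b-cKO library 5, and the log2 fold change had little precision (-0.87, SE 1.42, adjusted p = 0.788). At P30, Nkx6-2 was 3.84, 5.20 and 6.11 FPKM in WT. Kdm6b-cKO libraries 0, 1 and 5 had 1.86, 3.13 and 2.44 FPKM, all below the WT range, while libraries 2, 3 and 4 had 10.7, 13.2 and 16.1 FPKM, all above it. The latter 3 are the libraries under 3000000 effective reads, and their 45S levels, 3034, 15420 and 25878 FPKM, were also above those of Kdm6b-cKO libraries 0, 1 and 5. The 5 WT libraries with high 45S, from 1629 to 4027 FPKM, had 3.90 to 6.11 FPKM of Nkx6-2. Inpp5a, the overlapping gene, averaged 11.3 FPKM in WT and 10.9 in Kdm6b-cKO at P30 (log2 fold change -0.052, SE 0.20, adjusted p = 0.943). Over all libraries the log2 fold change of Nkx6-2 was 0.21 (SE 0.50, adjusted p = 0.901). It was -0.99 (adjusted p = 0.0362, a fall of just under 2-fold) without libraries 2, 3 and 4 of Kdm6b-cKO, and the part of depth and of 45S in this split was not tested.

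**Figure D2:**
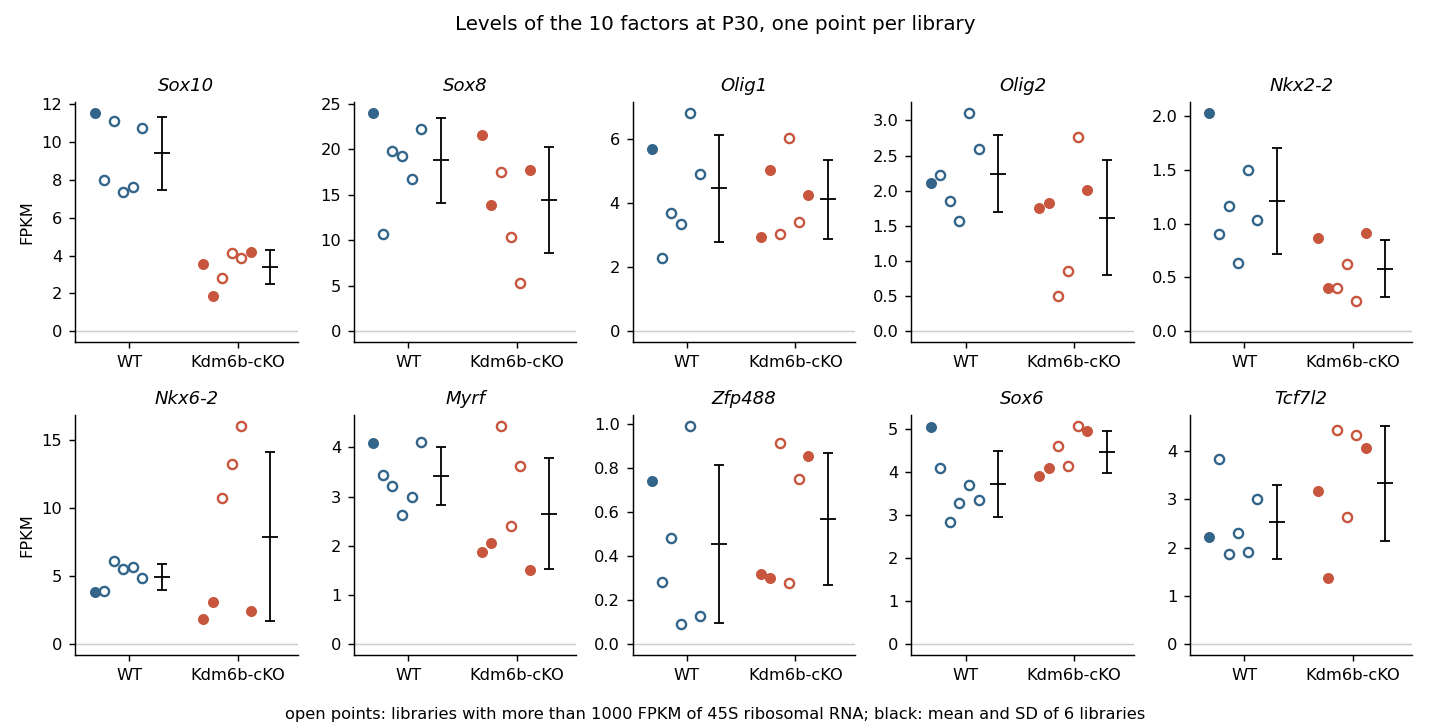
Levels at P30 in FPKM (vertical axis, linear, scaled for each gene) in each of the 6 WT and 6 Kdm6b-cKO libraries, with the mean and SD; open points are libraries with more than 1000 FPKM of 45S ribosomal RNA. Sox10 in Kdm6b-cKO stays at or below 4.19 FPKM in every library, and Nkx6-2 in Kdm6b-cKO falls into 3 open points above WT and 3 filled points below it.

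Among the factors of differentiation, Myrf, the membrane-bound regulator that drives myelin genes, lies on chromosome 19 from 10282762 to 10315238, minus strand. Zfp488, a zinc finger partner of OLIG2, lies on chromosome 14 from 34780256 to 34791950, minus strand. Tcf7l2, the Wnt effector expressed for a time in newly forming oligodendrocytes, lies on chromosome 19 from 55816300 to 56008144, plus strand.

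Myrf at P1 had 2, 4, 4, 7, 8 and 2 reads in the WT libraries and 0, 0, 1, 0, 0 and 6 in the Kdm6b-cKO libraries. Of the 7 Kdm6b-cKO reads, 6 came from library 5, the shallowest. Because that library weighs as much as any other in a mean of FPKM, the ratio of mean FPKM was 1.55 for Myrf while the ratio of summed reads per depth was 0.317 (95% exact binomial interval 0.117 to 0.746), and 0.0462 without library 5. At P30, Myrf was 2.63, 3.33 and 4.10 FPKM in WT and 1.52, 2.23 and 4.44 FPKM in Kdm6b-cKO. Of the Kdm6b-cKO libraries, 4 lay below the WT range, and libraries 2 and 4 lay above the WT median. Myrf had a log2 fold change of -0.43 (SE 0.28, adjusted p = 0.557), of -0.86 (adjusted p = 0.0544) without the 3 Kdm6b-cKO libraries under 3000000 reads, and of -0.76 (adjusted p = 0.0224, under 2-fold) with array weights.

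Zfp488 showed the same dependence on library 5 at P1. It had 3, 5, 15, 10, 8 and 4 reads in the WT libraries and 0, 1, 0, 1, 5 and 5 in the Kdm6b-cKO libraries. Its log2 fold change was -1.50 (SE 1.05, adjusted p = 0.523), the ratio of mean FPKM 0.981 and the ratio of summed reads 0.326 (interval 0.157 to 0.626), or 0.194 without library 5. At P30, Zfp488 was 0.0949, 0.384 and 0.994 FPKM in WT and 0.280, 0.536 and 0.913 FPKM in Kdm6b-cKO. The Kdm6b-cKO libraries all stood inside the WT range, with a log2 fold change of 0.42 (SE 0.52) for this gene under the filter.

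Tcf7l2 at P1 was 2.03, 6.76 and 12.9 FPKM in WT and 1.12, 3.02 and 14.3 FPKM in Kdm6b-cKO. Both the lowest and the highest library were of Kdm6b-cKO, the highest again library 5, and the log2 fold change was -0.83 (SE 0.58, adjusted p = 0.522). At P30, Tcf7l2 was 1.86, 2.27 and 3.84 FPKM in WT and 1.38, 3.61 and 4.43 FPKM in Kdm6b-cKO. Of the Kdm6b-cKO libraries, 5 lay above the WT median and 3 above the WT range, with a log2 fold change of 0.34 (SE 0.31, adjusted p = 0.701).

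Sox6, a SoxD factor that restrains differentiation, spans chromosome 7 from 122614858 to 123182258, minus strand. At P1, it was 7.34, 7.93 and 11.0 FPKM in WT and 3.76, 5.23 and 8.21 FPKM in Kdm6b-cKO. Of the Kdm6b-cKO libraries, 5 lay below the WT range and library 1 stood inside it. Sox6 had a log2 fold change of -0.66 (SE 0.30, adjusted p = 0.331), with p = 0.0108 by the exact permutation test, unadjusted. Within the libraries with and without olfactory receptor signal the difference was -0.64 (exact permutation p = 0.200, 4 WT and 1 Kdm6b-cKO) and -0.79 (exact permutation p = 0.143, 2 WT and 5 Kdm6b-cKO). At P30, Sox6 was 2.85, 3.52 and 5.04 FPKM in WT and 3.90, 4.36 and 5.07 FPKM in Kdm6b-cKO. All 6 Kdm6b-cKO libraries lay above the WT median, within or just over the WT range, and the log2 fold change was 0.27 (SE 0.19, 95% interval -0.13 to 0.67, adjusted p = 0.587). The genotype difference of Sox6 at P30 minus that at P1 was 0.93 on the log2 scale (SE 0.31, adjusted p = 0.227 by limma over 12644 genes). None of the 7 factors tested at both ages passed in that comparison, where 1 gene of all did and 1668 had an unadjusted p under 0.05. SOX6 is also made by GABAergic interneurons, whose 9 tested markers were all higher in Kdm6b-cKO at P30 (median log2 fold change 1.58). Of these 9, 6 had an unadjusted p under 0.05, against 5.34% of all genes, none was called and none was at 0 in every library. The part of these neurons in the Sox6 values was not tested.

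**Figure D3:**
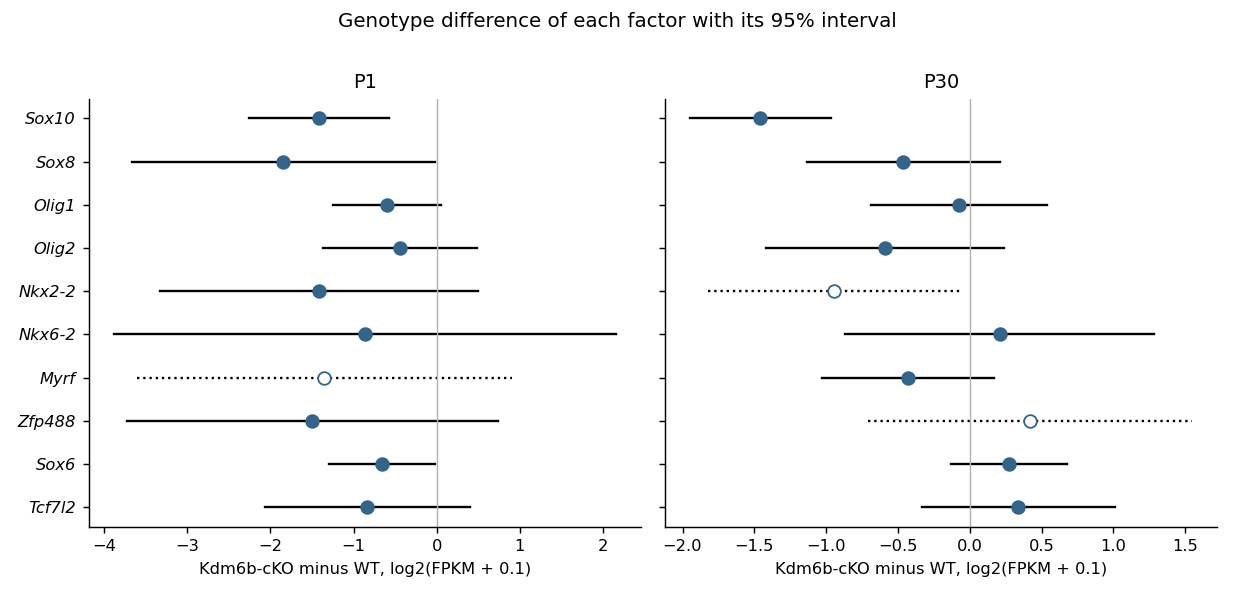
Log2 fold change of each factor (horizontal axis, Kdm6b-cKO minus WT on the log2(FPKM + 0.1) scale) with its 95% interval, at P1 and at P30; open points with dotted lines are factors under the filter. All points lie below 0 at P1 with wide intervals, and at P30 the interval of Sox10, -1.95 to -0.97, is the one of a tested factor that leaves out 0.

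Whether a factor changed differently from Sox10 was tested directly, on the log2 level of the factor minus that of Sox10 in the same library, a quantity that a scaling factor of a library leaves nearly unchanged. At P1, none of the 8 factors tested differed from Sox10 (limma, adjusted p 0.130 to 0.9997), against 40.8% of all genes, and none had an unadjusted p under 0.05, against 49.3%. The differences were smallest for Nkx2-2 (-0.00063, SE 0.96) and Zfp488 (-0.083, SE 1.08) and largest for Olig2 (0.97, SE 0.59) and Olig1 (0.82, SE 0.42). For Nkx2-2 and Zfp488 they depend on the added 0.1. With 1 added, the log2 fold changes were -0.49 for Nkx2-2 and -0.40 for Zfp488, against -1.10 for Sox10. With 0.01 added, they were -2.50 and -2.70, against -1.46. The intervals of the differences were wide: that of Zfp488 ran from -2.35 to 2.19, so a like fall and no fall are both within it. Olig1 passed without Kdm6b-cKO library 3, and Olig2 without library 4.

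At P30, 6 of the 7 factors tested differed from Sox10, all with a smaller fall or a rise. The test was passed by 82.5% of all genes, and by unadjusted p under 0.05 it was again 6 of 7 against 83.7%, so such a share is near the background and marks how far Sox10 stood from genes in general. The difference was 1.80 for Tcf7l2 (SE 0.35, adjusted p = 0.00045), 1.73 for Sox6 (SE 0.30, adjusted p = 0.000252) and 1.67 for Nkx6-2 (SE 0.49, adjusted p = 0.00576). It was 1.38 for Olig1 (SE 0.36, adjusted p = 0.00252), 1.03 for Myrf (SE 0.37, adjusted p = 0.0163) and 0.99 for Sox8 (SE 0.37, adjusted p = 0.0205). Olig2 did not pass (0.87, SE 0.46, 95% interval -0.10 to 1.83, adjusted p = 0.0874), and Nkx2-2, under the filter, differed by 0.51 (95% interval -0.51 to 1.53). Olig2 did pass with a pseudocount of 1, with quantile scaling and without Kdm6b-cKO library 2 or 3, which made 7 of 7. Without the 3 Kdm6b-cKO libraries under 3000000 reads, Olig1, Olig2, Sox6, Sox8 and Tcf7l2 differed from Sox10, and Myrf and Nkx6-2 no longer did. Sox8 did not pass without Kdm6b-cKO library 1 or with a term for the 45S level, which left 5 of 7 each time.

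**Figure D4:**
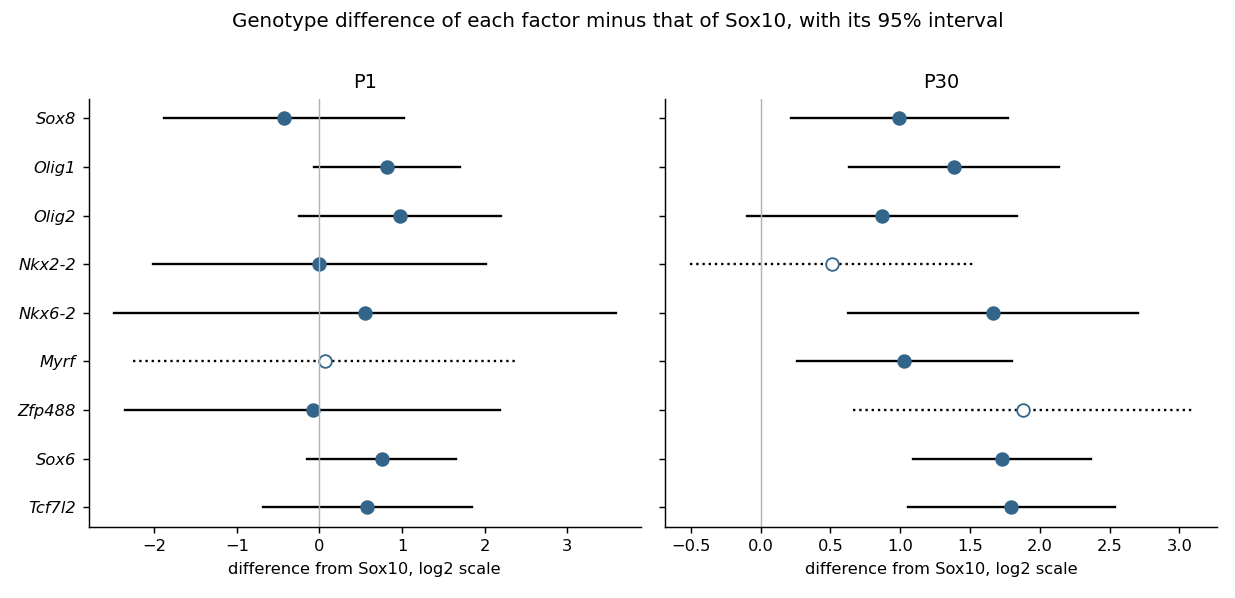
Genotype difference of each factor minus that of Sox10 (horizontal axis, log2 scale) with its 95% interval, at P1 and at P30; open points with dotted lines are factors under the filter, and 0 is a change equal to that of Sox10. At P1 every interval holds 0, and at P30 those of Olig2 and Nkx2-2 hold 0 while the others lie above it.

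In reads, the factors could be compared with each library weighted by its depth. Whole reads were recovered at both ages for 6 factors, Sox10, Sox8, Olig1, Olig2, Myrf and Zfp488, each value within 0.000841 reads of a whole number. Intervals on ratios of summed reads are exact binomial and cover counting error only, not the spread between libraries. At P1, the ratio of Kdm6b-cKO to WT was 0.496 for Sox10 (71 against 175 reads, interval 0.371 to 0.657). It was 0.720 for Sox8 (158 against 268 reads, 0.588 to 0.880), 0.646 for Olig1 (213 against 403 reads, 0.545 to 0.764) and 0.823 for Olig2 (70 against 104 reads, 0.599 to 1.12). The lowest ratios were those of Myrf (7 against 27 reads) and Zfp488 (12 against 45 reads), given above.

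At P30, the ratio of summed reads was 0.338 for Sox10 (218 against 924 reads, interval 0.290 to 0.392), and no other factor with whole reads had an interval reaching so low. Myrf followed at 0.668 (338 against 725 reads, 0.585 to 0.761) and Olig2 at 0.734 (103 against 201 reads, 0.573 to 0.935). Sox8 stood at 0.846 (1219 against 2063 reads, 0.788 to 0.909), Olig1 at 0.887 (223 against 360 reads, 0.747 to 1.05) and Zfp488 at 0.978 (56 against 82 reads, 0.683 to 1.39). For the other 4 factors, whose values gave no whole reads, reads per kilobase of effective length were summed instead, without an interval. Their ratios at P1 were 0.519 for Nkx2-2, 0.509 for Nkx6-2, 0.600 for Sox6 and 0.482 for Tcf7l2, and at P30 they were 0.492, 1.07, 1.14 and 1.20 in the same order. Leaving out 1 library moved Nkx2-2 at P1 to 0.317 (without Kdm6b-cKO library 4) and Nkx6-2 to 0.247 or 0.289 (without Kdm6b-cKO library 1 or 5). At P30, Nkx6-2 moved to 0.901 without Kdm6b-cKO library 3, and Zfp488 to 1.31 and Olig1 to 1.01 without WT library 4, each across 1. The P1 ratios of all 10 factors lay between 0.317 and 0.823, and Olig2 rose to 1.03 without Kdm6b-cKO library 4. Among all 16250 genes past the filter at P1, 52.9% had a ratio below 1 (median 0.963). Among the 13289 past it at P30, 48.8% did (median 1.008).

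**Figure D5:**
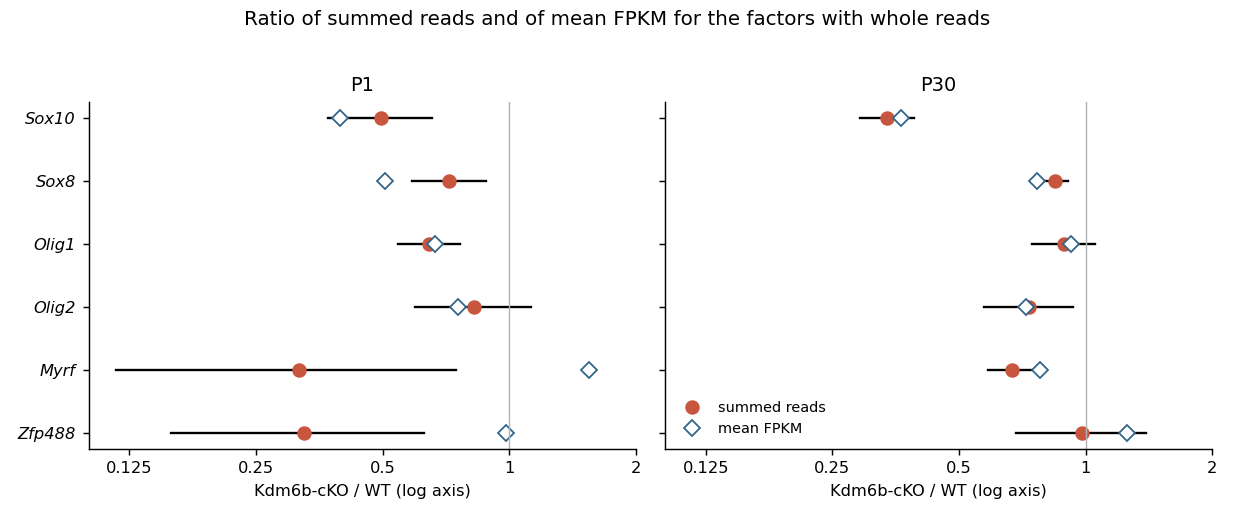
Ratio of Kdm6b-cKO to WT (horizontal axis, log scale) from reads summed over libraries per effective depth (filled, with the 95% exact binomial interval, counting error only) and from mean FPKM (open), for the 6 factors with whole reads. At P1, Myrf and Zfp488 are at 0.317 and 0.326 in reads and at 1.55 and 0.981 in mean FPKM, and at P30 Sox10 is lowest by both measures.

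Genes near the factors in the same families or pathways were counted from lists. Of 12 other Sox genes, all passed the filter at P1, where 7 lay below 0 and 5 above (median -0.13, against -0.25 for all genes), and 6 passed at P30, where 3 lay on each side. Sox4, a SoxC factor, had the smallest p of them at both ages, with a log2 fold change of 0.93 at P1 (SE 0.40, adjusted p = 0.311) and 0.45 at P30 (SE 0.31, adjusted p = 0.593). Of 17 helix-loop-helix and homeobox relatives and partners, 14 were tested at P1 and 11 at P30, and none was called. Id2, which binds helix-loop-helix factors and blocks differentiation, averaged 380.4 FPKM in WT and 890.5 in Kdm6b-cKO at P1 (log2 fold change 1.14, SE 0.33, adjusted p = 0.190), and Hes5, a Notch target, had -0.74 at P30 (SE 0.26, adjusted p = 0.257). Of 24 other regulators of oligodendrocyte differentiation, 23 were tested at P1 and 21 at P30, again with no call. Hdac2, a histone deacetylase, had no overlap between the groups at P1 (log2 fold change 0.82, SE 0.25, adjusted p = 0.193), as had 0.603% of all genes in that direction. Zfp536 had -1.06 at P1 (SE 0.43, adjusted p = 0.290), and Hdac1 had 0.82 at P30 (SE 0.30, adjusted p = 0.287).

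The genes downstream of the factors, those of myelin and of lineage progression, numbered 22. At P1, 17 were tested and 13 lay below 0 (median log2 fold change -1.28), against 63.2% of all genes (median -0.25), and none was called. Gpr17, a receptor of committed precursors, had the smallest p (log2 fold change -2.84, SE 0.95, adjusted p = 0.211), followed by Pdgfra, the growth factor receptor of precursors (-1.93, SE 0.84, adjusted p = 0.313). Mean levels in WT and Kdm6b-cKO were 2.09 and 0.627 FPKM for Gpr17 and 7.75 and 3.56 FPKM for Pdgfra. At levels as low as those of Gpr17, the log2 fold change depends on the added 0.1. At P30, 21 were tested and 18 lay below 0 (median -0.73), against 54.8% of all genes (median -0.047). Lower at an unadjusted p under 0.05 were 11, against 7.37% of all genes, and 3 were called. Among them were Mag, a myelin adhesion protein (log2 fold change -1.59, SE 0.19, adjusted p = 0.00538), and Mbp, a structural protein of compact myelin (-1.27, SE 0.20, adjusted p = 0.0204). Of 10 precursor markers, 9 were tested at P1 and 6 lay below 0 (median -0.46), a share near the 63.2% of all genes (median -0.25). Of the 9, 3 were lower at an unadjusted p under 0.05, against 7.77% of all genes. These 3 were Pcdh15 (log2 fold change -1.11, SE 0.45, adjusted p = 0.290), and Gpr17 and Pdgfra, which belong to both lists and are given above. All 10 were tested at P30, where 6 lay above 0 and 4 below (median 0.20), while 54.8% of all genes lay below 0 (median -0.047). Pcdh15, a protocadherin, lay higher in every Kdm6b-cKO library than in any WT library at P30 (log2 fold change 0.58, SE 0.15, adjusted p = 0.134), as did 0.888% of all genes.

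The genes whose levels followed Sox10 most closely were ranked by the mean absolute difference of log2(FPKM + 0.1), after centring each gene on its own mean over the 12 libraries of an age. At P30, Mbp was the closest of 13288 genes (0.212), followed by Caskin2 (0.251), Carns1 (0.259), Gm13872 (0.268) and Lrfn1 (0.271). Among the factors Myrf came nearest, at rank 1061 (0.598), then Sox8 at rank 3020 (0.694) and Olig2 at rank 3088 (0.696), and Nkx6-2 was farthest at rank 11534 (1.09). At P1, the 5 closest of 16249 genes were Aagab, Tmem229b, Adam9, Spr and Plcg1 (0.230 to 0.269), and Sox6 was the nearest factor at rank 461 (0.487). The measure includes the genotype difference itself, and the points share libraries and depth.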

How the data were processed

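RNA from sorted SUN1-GFP nuclei of WT and Kdm6b-cKO cortex was sequenced at P1 and P30. The authors aligned reads to mm9 with HISAT2 and, with Cuffdiff, deposited FPKM per gene and library, normalized for each age separately. The library kit's strand setting is not given in the sources used here, and libraries were run on NovaSeq6000 or AVITI instruments without a record of which. The deposited tables of the authors' own Cuffdiff comparison (fold changes, p and q values) were not used.

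limma 3.58.1 in R 4.3.3 (lmFit, eBayes with trend, two-sided) was fitted to log2(FPKM + 0.1), keeping genes that averaged 1 FPKM or more over the 12 libraries at that age, and p-values were adjusted over every gene kept (Benjamini-Hochberg). Differences from Sox10, and between ages over 24 libraries, were tested likewise. Single factors were compared by an exact permutation test over all 924 splits. Reads were recovered from steps of 1 read per effective length, with fragments assumed to be 200 bases and a tolerance of 0.01 reads. Coordinates are from GENCODE M1 models of mm9, where Myrf is named Gm98, and promoters are from RefSeq GRCm38.p6. Scripts were tested on simulated data. The remaining work was done in Python 3.11.15 (scipy 1.17.1, pandas 2.3.3, numpy 2.4.6, matplotlib 3.10.9).

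Named genes are the 10 factors, the 2 genes with the smallest p at each age in each of 10 lists (with any called gene), and the 5 genes most like Sox10, though not all list genes, nor all called ones, are reported here. The factors and lists were chosen with earlier results of these data known. Alternatives tried were a pseudocount of 1 or 0.01, a filter at 5 FPKM or none, quantile and median-of-ratios scaling, weights by depth, array weights, a term for olfactory receptor signal (P1) or 45S level (P30), and leaving out each library. Subsets above 1000000 reads at P1 and without the 3 Kdm6b-cKO libraries under 3000000 at P30 were added after the data were seen.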

Additional observations from a re-analysis of the deposited data

Results flagged for a closer look

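In each of the 40 groups of 6 libraries (10 factors, 2 genotypes, 2 ages), the gap of the highest or lowest library to its neighbour was compared with the group's range (Dixon's ratio at the 95% level). For normally distributed values, chance would flag about 1 in 20 groups, here about 2. Some groups hold FPKM at or near 0, which need not be so distributed, so that number is no yardstick here. Flags found were 5, all of them at P1 and all a highest library. In Kdm6b-cKO, library 5 stood apart with 9.49 FPKM of Nkx6-2 (next highest 2.73), 5.75 FPKM of Myrf (next 0.0655), 6.32 FPKM of Zfp488 (next 0.443) and 14.3 FPKM of Tcf7l2 (next 5.49). In WT, library 4 stood apart with 4.45 FPKM of Nkx6-2 (next 1.52). Kdm6b-cKO library 5 had 191000 effective reads and WT library 4 had 818000, each the fewest of its group. Both also had olfactory receptor signal, with 488 and 611 receptor genes above 0. The 5 flags come from 2 libraries and are not independent.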

How the results depend on the processing

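No paired analysis was possible because the library numbers 0 to 5 of the tables stand in no label of the samples, which are numbered 1 to 6. No factor was called at P1 under any alternative, while calls over all genes at P1 ranged from 0 to 408 and the median log2 fold change of all genes from -0.47 to -0.022. The number of P1 factors unlike Sox10 was 0 to 1 when 1 library was left out. At P30, Sox10 alone was called in each alternative that kept all libraries and without the 3 shallow Kdm6b-cKO libraries, and the number called was 0 to 1 when 1 library was left out, with the log2 fold change of Sox10 between -1.53 and -1.30 and its adjusted p between 0.0203 and 0.0681. Calls over all genes at P30 fell from 37 to as few as 2 when 1 library was left out and rose to 550 with a term for 45S. Factors unlike Sox10 at P30 numbered 5 to 7 of 7 when 1 library was left out, 5 with a term for 45S, and 2 of 2 with a mean of at least 5 FPKM, where fewer were tested. The direction of some low or uneven factors changed, and the cause was not tested. For Nkx6-2 at P1 the log2 fold change was 0.54 by quantile scaling and 1.49 with the olfactory term, and the difference was 2.43 within the libraries with olfactory signal (4 WT, 1 Kdm6b-cKO) and 0.96 within the others (2 WT, 5 Kdm6b-cKO). Zfp488 at P1 gave 0.18, 0.088 and, within the libraries with olfactory signal, 1.94, where Nkx2-2, Myrf and Tcf7l2 gave 0.49, 2.90 and 1.02, all from the 1 Kdm6b-cKO library 5. For Nkx6-2 at P30 it was -0.34 with depth weights, -0.88 with array weights, -0.99 without the 3 shallow Kdm6b-cKO libraries, -0.033 and -0.089 without Kdm6b-cKO library 3 or 4 (-0.089 to 0.52 over all libraries left out in turn), -0.64 within the low 45S libraries (1 WT, 3 Kdm6b-cKO) and 1.34 within the high 45S libraries (5 WT, 3 Kdm6b-cKO, exact permutation p = 0.0179). Olig1 at P30 moved to 0.012 without WT library 0, 0.064 without WT library 4, 0.0093 and 0.00079 without Kdm6b-cKO library 0 or 2 (-0.25 to 0.064 over all left out in turn), and 0.0085 within the high 45S libraries, where Myrf gave 0.061. Within the low 45S libraries Zfp488 gave -0.63 and Sox6 -0.23. Sox10 was lower in Kdm6b-cKO at both ages under every alternative that tested it, and at P1 the filter at 5 FPKM left it out. In the shallowest P1 library, with 191000 effective reads, Sox10 and Olig2 had 1 read each.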
